A study of Canis lupus familiaris with 16 samples.

Results

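PDPN (podoplanin, ENSCAFG00000016363) was 1 of the 24580 Ensembl genes measured by RNAseq in canine meningiomas and in normal canine meninges. It was chosen because it is in the study's list of genes higher in meningioma, so its difference between the groups was what selected it and is given here as a description, with no test. The series held tumours of 13 pet dogs and leptomeninges of 3 healthy research beagles, 1 library per dog. Of the tumours, 6 were grade I, with 5 transitional and 1 meningothelial, and 7 were grade II atypical meningiomas. The labels describe the tumours as fixed in formalin and embedded in paraffin, while the methods describe a pair of them as frozen. All controls were collected fresh and frozen, and their RNA was purified with a different kit. The tumours came from dogs of several breeds and both sexes. The labels give no ages, while the study gives them for the tumour dogs. It places some tumours in the spinal column or at the cerebellum, and the controls over the cerebral cortex. Breed therefore differed with the group, as did site for some tumours, and preservation and RNA extraction outside the frozen pair. The part of these in the values was not tested. Before deposit, the study had also left out tumours that failed quality checks or stood apart in preliminary analyses, which limits the range of meningiomas represented. Libraries are numbered 0 to 12 in the meningiomas (M0 to M12 here) and 0 to 2 in the controls (N0 to N2), without the sample names of the labels. Libraries were not matched to samples by their values, so grades and types of preservation were not compared here.

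Podoplanin is a small transmembrane glycoprotein with a mucin-like, heavily glycosylated extracellular part. It is the ligand of CLEC-2, a receptor on platelets, and its short cytoplasmic tail binds ezrin and moesin, which link the membrane to actin and act on RhoA signaling. It marks lymphatic endothelium but not blood vessel endothelium, and in the meninges it is known from arachnoid cells, the cells from which meningiomas arise. Of the markers listed for arachnoid cells and meningioma other than PDPN, 0 of 11 were paired with an identifier here, and of the markers of lymphatic endothelium 0 of 4, so the description of PDPN as an arachnoid cell marker could not be checked against other genes of that cell type.

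Between 2138741 and 7358925 fragments per meningioma library were counted on genes (median 4095984), and 2269204, 4467660 and 7054614 in the controls. On these totals rest the values of PDPN, which was counted in every library, with 595 to 4224 fragments (median 1243) in the meningiomas and 188, 205 and 637 in the controls. Among principal components of log2(FPKM + 1), M2 and M12 stood apart from the rest on the third component, with scores of 70.3 and 67.5 while the other libraries lay between -34.9 and 14.9. On the fourth component M6 stood apart, with a score of 87.6, and M12 was next highest with 27.6. Later analyses left out M2 and M12 as a pair, and M6 only on its own. No libraries of a group were alike within counting noise over the 81 pairs compared.

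PDPN was expressed in all normal meninges and reached higher values in nearly all meningiomas. In FPKM, fragments scaled for library size and transcript length, the controls had 16.9, 28.8 and 44.6, with a mean of 30.1 ± 13.9 (SD, n = 3). The meningiomas ranged from 44.1 in M3 to 478 in M2, with a median of 110 and a mean of 153 ± 118 (SD, n = 13). The ratio of the means was 5.08 and that of the medians 3.83. The log2 fold change from the negative binomial fit over all genes was 2.45 (SE 0.66). Without M2 and M12 together, the mean of the meningiomas was 116 ± 63.3 FPKM (SD, n = 11) and the log2 fold change 2.10. Of the 13 meningiomas, 11 were at least 2-fold above the mean of the controls and 6 at least 4-fold, M2 was 15.9-fold above it, and M3 was 1.47-fold above it. In bulk tissue, more cells of a type and more RNA per cell cannot be told apart, so these levels are those of whole samples.

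The meningiomas were spread over this range, with the widest step between M2 and the next. M2, M1, M12 and M0 had 478, 237, 229 and 221 FPKM, and M5 and M6 followed with 136 and 132. Below these lay M10 with 110 FPKM, M9 with 98.9, M8 with 94.0 and M7 with 91.0. M4, M11 and M3 were lowest, with 66.5, 47.5 and 44.1 FPKM. The highest meningioma was thus 10.8-fold above the lowest, while the controls spanned 2.63-fold.

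The libraries were also ordered by CPM, here the fragments counted on PDPN scaled to a library total of 1000000, a measure that uses no transcript length. This measure carries an exact Poisson 95% interval, which covers counting error only, since amplified reads are not independent molecules. M2 was highest with 1031 CPM (interval 1000 to 1063), followed by M1 with 631 (607 to 655), M0 with 496 (480 to 513) and M12 with 461 (445 to 476). The lowest meningioma, M3, had 117 (108 to 126), and the highest control, N0, had 90.3 (83.4 to 97.6). N1 had 82.8 (71.4 to 95.6) and N2 had 45.9 (39.8 to 52.6). Of the 15 pairs of neighbors in this order, 5 had intervals that overlapped, and their order is not resolved at this depth. These were M6 and M5, M10 and M9, M7 and M8, M11 and M3, and N0 and N1.

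**Figure D1:**
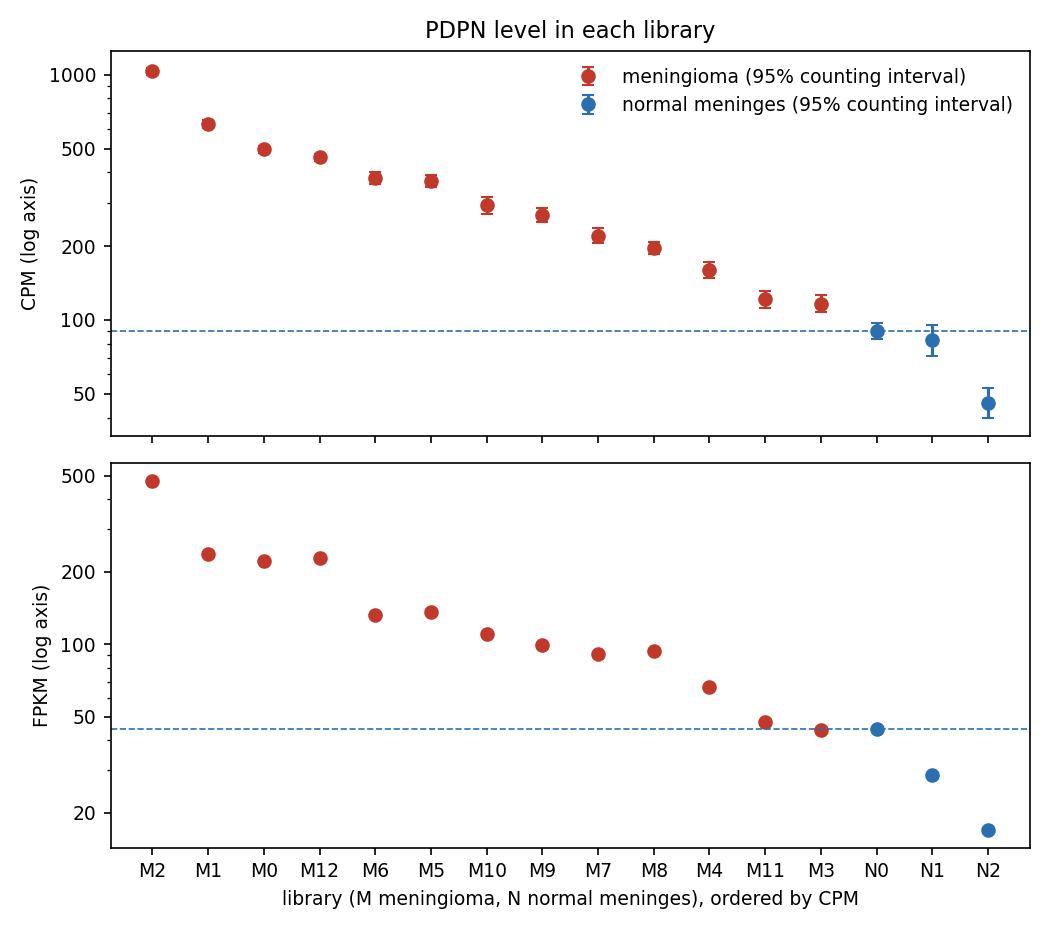
PDPN in each of the 13 meningioma (M) and 3 normal meninges (N) libraries, as CPM with exact Poisson 95% counting intervals (upper panel) and as FPKM (lower panel), both on log axes. The dashed line marks the highest control, which all 13 meningiomas exceed in CPM and 12 of 13 in FPKM, where M3 (44.1) lies just under N0 (44.6).

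Whether the groups overlapped depended on the unit. In FPKM, 12 of 13 meningiomas lay above all controls, and M3 with 44.1 lay just under N0 with 44.6. Among the 14345 genes tested, 5.0% had at least 12 of 13 meningiomas above all controls in FPKM, and 1.92% had all of them above. In CPM, 13 of 13 meningiomas lay above all controls for PDPN, which held for 1.08% of the genes tested. In CPM with TMM normalization the groups did not overlap for PDPN either, with 114 in the lowest meningioma and 88.2 in the highest control, which held for 2.15% of the genes tested. By the edgeR quasi-likelihood test with Benjamini-Hochberg adjustment, 4.86% of the genes tested had an adjusted p under 0.05, and 1.31% were called higher in meningioma. Since PDPN was chosen on this contrast, nothing is read from its own place among these genes.

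The difference between the units came from the transcript length used for PDPN in each library. The number of scaled fragments behind 1 FPKM is proportional to that length, and it should be the same in all libraries when the same mixture of transcripts is assigned. For PDPN it was within 0.5% of its highest value in 9 of the 16 libraries and lower in 5 meningiomas and 2 controls. It was lowest in N0, at 76.9% of the highest value, followed by M12 at 83.5%, M8 at 86.6%, M2 at 91.8% and M0 at 95.9%. M6 and N2 were at 98.8% and 98.5%. Of the 6465 genes with at least 50 scaled fragments in every library, 71.4% had the same ratio in all libraries, and 8.46% reached a lower minimum than PDPN did.

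**Figure D2:**
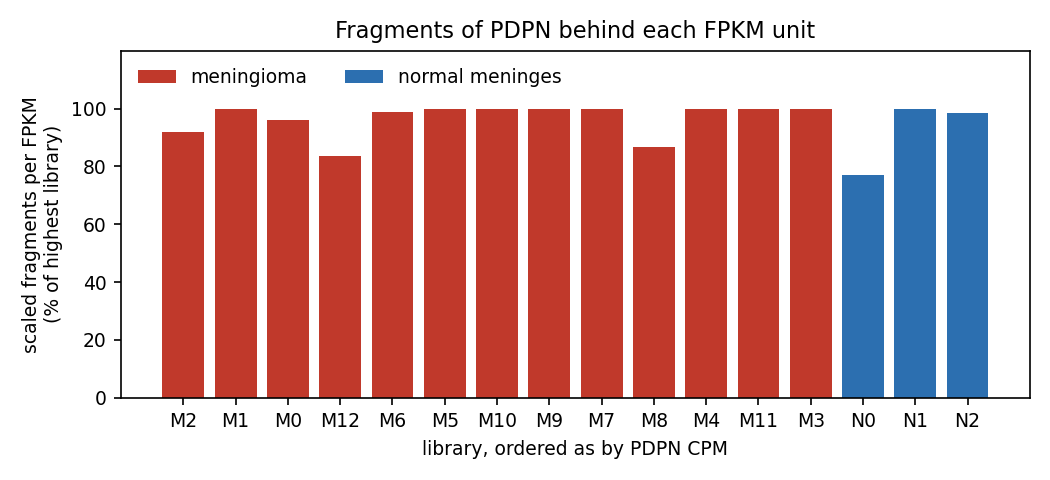
Scaled fragments of PDPN per FPKM in each library, as a percent of the highest library, with libraries ordered by PDPN CPM and bars colored by group. N0, the highest control, has the lowest ratio of all 16 libraries (76.9%), and M12 the lowest of the meningiomas (83.5%).

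When FPKM was recomputed with the same length in all libraries, N0 fell from 44.6 to 34.3 FPKM and M3 stayed at 44.1, so that all 13 meningiomas lay above the controls. The mean of the meningiomas was then 145 ± 107 FPKM (SD, n = 13), 5.46 times that of the controls at 26.6 ± 9.02 (SD, n = 3). M2 was at 439 FPKM and M12 at 191 on this scale, so M12 passed below M0, which was at 212. Which transcripts of PDPN were assigned in each library was not analysed here.

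Relative to other genes of the same library, PDPN was among the more abundant transcripts. Ranked by FPKM among genes with a value above 0, it was at percentile 88.2 to 98.8 in the meningiomas, with a median of 97.0, and at percentiles 65.7, 83.9 and 89.1 in the controls. Counted from the most abundant gene, its rank ran from 195 in M2 to 1935 in M3, with a median of 470, and was 1993, 3029 and 5755 in the controls. Among the 41 genes of the study's higher list, which were chosen on these samples, PDPN had the seventh highest mean FPKM in the meningiomas and the sixth highest in the controls. In the meningiomas its neighbors in that order were VWA5A with 217 ± 93.5 FPKM and MEDAG, a gene of adipocyte differentiation, with 140 ± 107 (SD, n = 13), and the differences between these means are smaller than the SDs.

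PDPN varied more between meningiomas than most genes. On log2(FPKM + 1), its SD was 0.97 over the meningiomas and 0.67 over the controls. The median SD of the genes tested was 0.50 over the meningiomas, and 88.9% of these genes had a smaller SD than PDPN. Genes of low level vary more from counting, so the 423 genes with a mean within 0.5 log2 units of PDPN were taken as a comparison, and 87.7% of these had a smaller SD (median 0.55). Both comparisons used FPKM over all 13 meningiomas. Without M2 and M12, the FPKM of PDPN spanned 5.37-fold instead of 10.8-fold, and the comparisons were not repeated.

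The relation of PDPN to depth and to other genes within the meningiomas was not used to choose it and could be tested. The level of PDPN was not found to follow depth. Its Pearson's r with log2 total fragments was 0.09 (permutation p = 0.767), with the number of genes detected 0.22 (permutation p = 0.480), and with the percent of fragments in the 100 most abundant genes 0.16 (permutation p = 0.608), over 13 libraries. Spearman's rho was 0.09, 0.24 and 0.10 (permutation p = 0.765, 0.438 and 0.751). Adjusted over the 3 relations, p was 0.767 for each r and 0.765 for each rho. Without M2 and M3, the libraries farthest from the median of PDPN, r was 0.31, 0.41 and 0.05, and without M2 and M12 it was -0.026, 0.56 and -0.10. The labels give no sequencing batch.

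Genes that rose or fell with PDPN across the 13 meningiomas were then sought with edgeR, with the log2 TMM-normalized CPM of PDPN as the tested term and p adjusted over 14344 genes. A positive slope was called for 3 genes, 0.0209% of those tested, and a negative slope for 0. Without adjustment, p was under 0.05 for 650 genes with a positive slope (4.53%) and for 311 with a negative slope (2.17%). DESeq2 called 37 positive and 6 negative slopes, and limma on log2(FPKM + 1) called 0. The permutation test of Pearson's r called 0 genes after adjustment, with an unadjusted p under 0.05 for 553 positive (3.86%) and 487 negative (3.4%) relations.

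The 3 genes called have no symbol in the sources used here and are named because they are so few, after their values were seen. ENSCAFG00000014225 had 271 FPKM in M2 and at most 1.13 in the other meningiomas, with a slope of 3.33 (SE 0.47, adjusted p = 0.0316, edgeR). ENSCAFG00000010623 had 29.1 FPKM in M2 and at most 0.750 in the other meningiomas, with a slope of 2.57 (SE 0.36, adjusted p = 0.0316, edgeR). ENSCAFG00000024453 had 1260 FPKM in M2, 236 in M0 and at most 5.44 in the remaining meningiomas, with a slope of 4.44 (SE 0.66, adjusted p = 0.0411, edgeR). Slopes are in log2 units of the gene per log2 unit of PDPN. All of them were thus highest in M2, the library with the highest PDPN, and without M2 no slope was called, with an adjusted p of 1.00 for each of these genes by edgeR. The slope of ENSCAFG00000014225 was then 0.47 and that of ENSCAFG00000010623 was 0.97, while that of ENSCAFG00000024453, which was also high in M0, was 4.56 and thus about as large as with M2.

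**Figure D3:**
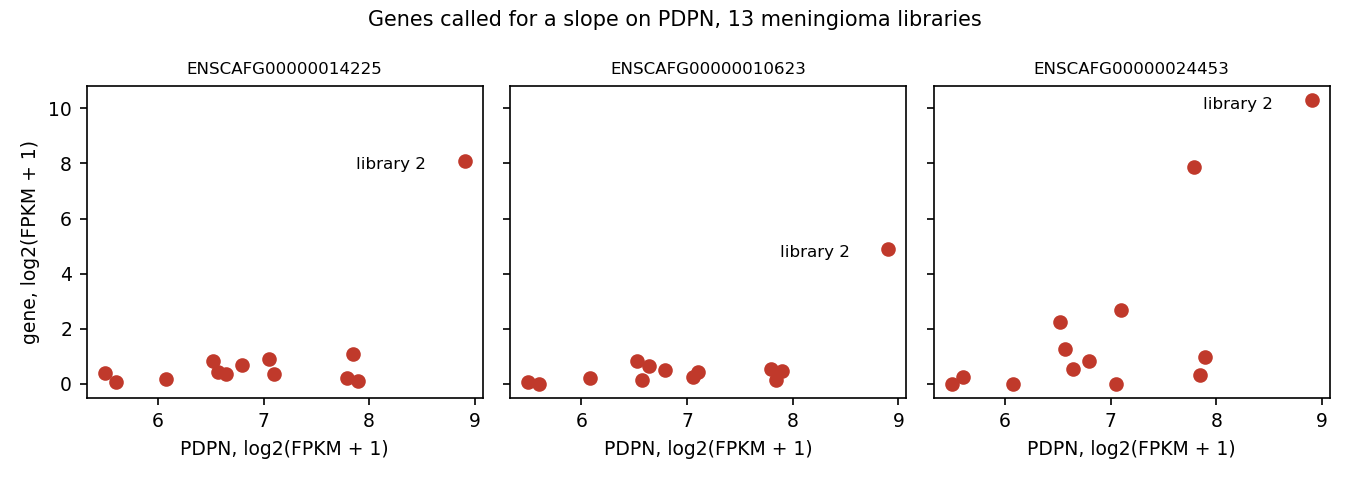
FPKM of the 3 genes with a called slope against FPKM of PDPN, both as log2(FPKM + 1), with 1 point for each of the 13 meningioma libraries. M2 (library 2) is the rightmost point and the highest in each panel, and the other libraries of the first 2 panels lie near 0.

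The number of called slopes also changed when other libraries were left out. It was 20 without M1, 11 without M0, 10 without M12, 2 without M3 and 1 without M7. It was 0 without M4, M5, M6, M8, M9, M10 or M11, as it was without M2.

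Only the genes of the study's lists carried a symbol here, 123 besides PDPN. Of these, TLL1, NR4A1, CACNA2D2, LIMCH1 and LEPREL2 had the highest r with PDPN over the meningiomas, on log2(FPKM + 1). Among all 14344 genes, TLL1 held place 838 by r and LEPREL2 place 1676. For TLL1, a metalloprotease of the tolloid family that acts on matrix proteins, r was 0.51 (permutation p = 0.0761, adjusted p = 0.702), rho was 0.44 (permutation p = 0.135, adjusted p = 1.00), and its level ranged from 0.0812 to 5.96 FPKM. For NR4A1, an immediate-early nuclear receptor ranging from 1.63 to 251 FPKM, r was 0.46 (permutation p = 0.119, adjusted p = 0.723), and rho was 0.27 (permutation p = 0.373, adjusted p = 1.00). The calcium channel subunit CACNA2D2, the actomyosin regulator LIMCH1 and the collagen prolyl hydroxylase LEPREL2 had r of 0.44, 0.42 and 0.41. None of these relations passed the adjustment. Without M2 and M3, r was 0.19 for TLL1, 0.06 for NR4A1, 0.20 for CACNA2D2, 0.29 for LIMCH1 and 0.13 for LEPREL2. Without M2 alone, it was 0.26, 0.21, 0.26, 0.31 and 0.12, and without M3 alone it was 0.47, 0.37, 0.40, 0.40 and 0.42, in the same order of genes.

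Among the genes of the study's lists, the lowest r was that of DACT2, which acts on WNT signaling through Dishevelled. It was -0.67 (permutation p = 0.0127, adjusted p = 0.689), while the rho of DACT2 was -0.38 (permutation p = 0.194, adjusted p = 1.00). DACT2 ranged from 0.797 to 16.1 FPKM in the meningiomas, and its r was -0.40 without M2 and M3. NOL4 had an r of -0.59 (permutation p = 0.0346, adjusted p = 0.689) and a rho of -0.58 (permutation p = 0.0429, adjusted p = 1.00). Its r was -0.70 without M2 and M3. FAM210B, a mitochondrial protein, had an r of -0.57, and KALRN and MCF2L, which are both guanine nucleotide exchange factors of small GTPases, had r of -0.54 each. Without M2 and M3 these were -0.47 for FAM210B, -0.26 for KALRN and -0.33 for MCF2L. None of these relations passed the adjustment either.

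Genes outside the study's lists, which had no symbol here, reached larger r. ENSCAFG00000023607, at 3.94 to 10.7 FPKM, had the highest r of all 14344 genes, at 0.87 (permutation p = 0.00013, adjusted p = 0.689), with a rho of 0.87 (permutation p = 0.00024, adjusted p = 1.00). ENSCAFG00000002703, at 38.9 to 160 FPKM, followed with an r of 0.84 (permutation p = 0.00029, adjusted p = 0.689) and a rho of 0.73. The lowest were ENSCAFG00000011672 and ENSCAFG00000016997, with an r of -0.82 each (permutation p = 0.00061 and 0.00074, adjusted p = 0.689 for both) and a rho of -0.85 and -0.78. Without M2 and M3 these 4 values of r were 0.72, 0.75, -0.71 and -0.74. They were the extremes among 14344 genes, and their relations did not pass the adjustment.

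Of 14 genes listed as binding podoplanin, acting downstream of it or regulating it, among them CLEC1B, EZR, MSN and RHOA, 2 were paired with an identifier. These were FOS and FOSB, subunits of the AP-1 transcription factor, and their r with PDPN was 0.25 and 0.20. A slope on PDPN was called for 0 of these 2, and for 0 of all 123 other genes of the study's lists. Over those 123 genes, 54 had an r above 0 and 69 below, with a median of -0.04, beside a median of 0.01 over all genes tested. Of all 14344 genes, 7295 had an r above 0 and 7049 below. The gene lists described next draw on the same study lists, which were chosen on these samples by their group difference.

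Of the 7 immediate-early genes, 6 had an r above 0, with a median of 0.20 and no called slope. The unadjusted permutation p of these r ran from 0.119 for NR4A1 to 0.968 for GEM. The largest slope was that of NR4A1, at 1.24 (SE 0.49), and the smallest that of FOSB, at 0.12 (SE 0.51). The summed level of this list ranged from 102 to 2071 FPKM in the meningiomas, and was 1796 FPKM in M2 and 121 FPKM in M12, both of which were high for PDPN. The 7 genes of epithelial and mesothelial type mostly ran the other way, with an r above 0 for 1 and below 0 for 6 and a median of -0.29, and again no called slope. The largest slope in this list was 0.31 (SE 0.23), for WFCD2. Among the 8 WNT and BMP genes, 3 had an r above 0 and 5 below (median -0.09), with slopes from -0.53 (SE 0.28) for DACT2 to 0.14 (SE 0.25) for DAAM2.

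Markers of other cell types were compared with PDPN because its level could move with the makeup of a sample. Of the 18 markers of blood vessel endothelium, such as PECAM1, TEK and TIE1, 18 were called lower in meningioma by edgeR, beside 3.55% of all genes tested and 76 of the 83 genes of the study's lower list. Their summed level was 74.8 to 260 FPKM in the meningiomas and 636 to 1048 FPKM in the controls. Of the 6 mural cell markers 6 were called lower, with sums of 14.5 to 54.4 and 131 to 327 FPKM, and of the 13 matrix and fibroblast genes 12, with sums of 94.2 to 292 and 852 to 2134 FPKM. These genes come from lists that the study chose on these samples by their group difference, so nothing is read from these counts. The part of tissue makeup in the level of PDPN between the groups was not tested.

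Within the meningiomas, 5 of the 18 endothelial markers had an r with PDPN above 0 and 13 below (median -0.13), and slopes ran from -0.58 (SE 0.29) for CYYR1 to 0.41 (SE 0.22) for CD93, a receptor of endothelial cells. For the mural markers, 4 were above 0 and 2 below (median 0.08), with slopes from -0.36 (SE 0.15) for NOTCH3, the Notch receptor of pericytes and smooth muscle, to 0.43 (SE 0.29) for SYNPO2. For the matrix genes, 7 were above 0 and 6 below (median 0.15), with slopes from -1.09 (SE 0.47) for the collagen gene COL8A1 to 0.55 (SE 0.27) for OLFML3. No slope was called in any of these lists. Without M2 and M12, the r of CD93 went from 0.32 to -0.21 and that of OLFML3 from 0.28 to -0.37. The r of CYYR1, NOTCH3, SYNPO2 and COL8A1 kept its sign, at -0.28, -0.59, 0.22 and -0.20. Of the 11 other genes chosen for qPCR, 4 were above 0 and 7 below (median -0.12), with slopes from -0.83 (SE 0.45) for PAMR1 to 0.67 (SE 0.35) for ZC2HC1C.

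**Figure D4:**
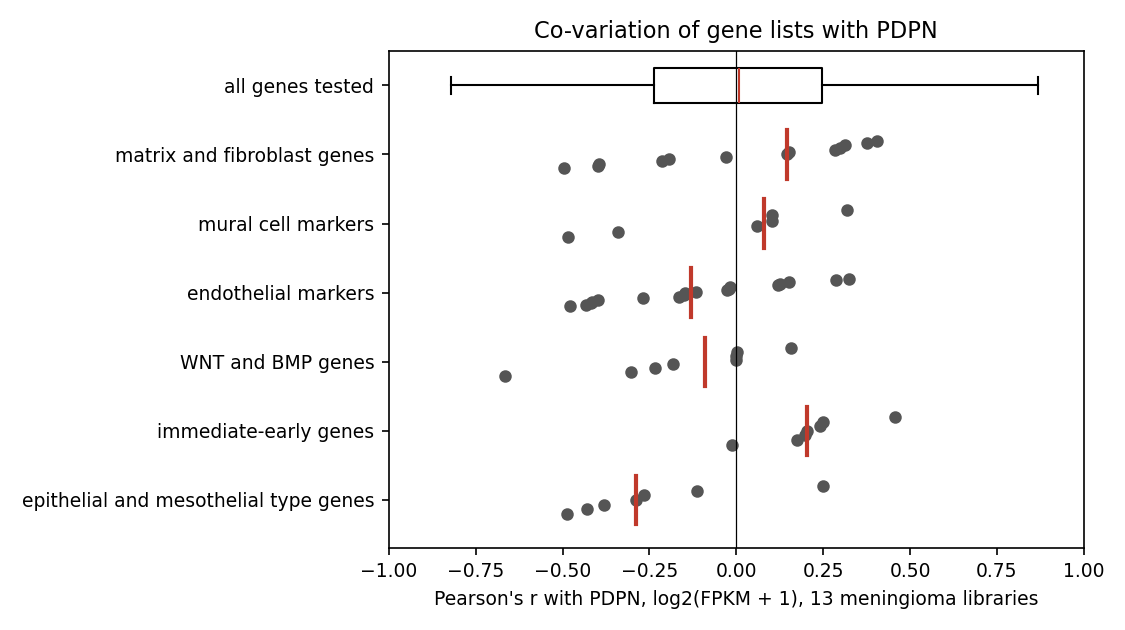
Pearson's r with PDPN over the 13 meningioma libraries on log2(FPKM + 1), with 1 point per gene and a red line at the median of each list. The box of all genes tested spans the quartiles, with whiskers from the lowest to the highest value, and the list medians lie between -0.29 (epithelial and mesothelial type genes) and 0.20 (immediate-early genes).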

How the data were processed

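Per the labels, ribosomal RNA was removed and directional libraries were made. The authors trimmed reads with cutadapt 1.8, mapped them to CanFam3 with TopHat2 2.0.13 and ran Cuffdiff 2.2.1 (versions from the submitters' processing notes). The deposited table holds the estimated count of fragments per gene and library, a signal (the authors' counts after scaling for library size) and FPKM, which the authors computed with transcript length. Of the estimated counts 0.341% were not whole, and all were rounded. No strand information was used here. Values from qPCR were not used here.

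PDPN and the gene lists were chosen with earlier results of these data known. The table names its conditions C (13 libraries) and N (3 libraries), which were taken as the meningiomas and the normal meninges by their numbers and the letter in the control titles. Symbols came from the study's lists of higher (41) and lower (83) genes, which pair them with 124 identifiers. The 14345 genes that reached 10 fragments in 3 or more libraries were fitted with edgeR 4.0.16 (TMM, quasi-likelihood) in R 4.3.3, with 2 groups over 16 libraries, or with PDPN as the term over the 13 meningiomas. Benjamini-Hochberg adjustment ran over all genes tested. Each SE beside an edgeR value is the absolute estimate divided by the square root of its quasi-likelihood F statistic, not an SE given by the fit. Correlations used log2(FPKM + 1) and 2-sided permutation tests with 100000 resamples (numpy 2.4.6). Tests were tried on simulated data first. Named genes are the members of the lists with the largest and smallest slope, and by r the 5 highest and 5 lowest with a symbol and the 2 highest and 2 lowest without. A list member that this rule would name is not reported here. RefSeq genes of UU_Cfam_GSD_1.0 were used for gene order. Alternatives were DESeq2 1.42.0, limma 3.58.1 with a pseudocount of 1 or 0.1 FPKM, other size factors, other filters, depth as a further term, and libraries left out. The analyses without M2 and M12 of the level and group comparison, and the FPKM at a common length, were added after the data were seen. P-values weigh a result against the variation between libraries. With 1 library per dog, this variation mixes differences between dogs with those of preservation, RNA extraction and library preparation.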

Additional observations from a re-analysis of the deposited data

How the results depend on the processing

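The log2 fold change of PDPN was 2.09 to 2.51 over the alternative fits and 2.18 to 2.68 with each library left out. As a log2 ratio without a fit, it was 2.34 for the mean FPKM and 1.94 for the median FPKM. It was above 0 in all of these. The count of genes called between the groups was 697 (188 higher). It was 1364 by DESeq2 (662 higher) and 169 to 931 with each library left out, with 245, 350 and 169 without N0, N1 and N2. The cause was not tested. The count of slopes on PDPN was 3. It was 43 by DESeq2, 0 by limma with either pseudocount, 18 with no filter on low counts, 0 with at least 30 fragments in 3 libraries, 1 with depth as a further term, 0 without M2 and M12, and 0 to 20 with each meningioma left out. The r of PDPN with log2 total fragments turned from 0.09 to -0.026 without M2 and M12 and lay between -0.035 and 0.21 with each library left out, turning negative without M0 (-0.029) or M12 (-0.035), and that with the share of the 100 most abundant genes turned from 0.16 to -0.10 without M2 and M12. Of the 14 genes named for the highest or lowest r, none changed sign under the alternatives run. The r of CD93 and OLFML3, which were named by slope, changed sign without M2 and M12. No paired analysis was possible because the tumours and the controls came from different dogs. The fold of PDPN rests on 3 controls with 188 to 637 fragments of PDPN each.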

Other observations

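In the gene order of RefSeq's UU_Cfam_GSD_1.0, in which 119 of the listed symbols were found and 6 were not, PDPN is gene 726 of the 769 protein-coding genes on chromosome 2. The same chromosome holds 6 other genes of the study's lists, 0 of the 40 other genes of the higher list and 6 of the 83 of the lower list. This count was made after the values were seen. The share of all genes that lie on this chromosome was not taken, so nothing is read from the count. The nearest are ECE1, which encodes an endothelin converting enzyme, and the alkaline phosphatase gene ALP, with 78 and 79 protein-coding genes between each and PDPN. The log2 fold change was -2.05 (SE 0.32) for ECE1 and -4.73 (SE 0.48) for ALP, and over the 13 meningiomas their r with PDPN was 0.23 and -0.11. TINAGL1, COL16A1, PIK3R1 and ARAP3 lie farther away, with 226 to 493 genes between, and had log2 fold changes of -2.72, -2.40, -2.32 and -2.21. Of the 6, the r with PDPN ran from -0.43 for PIK3R1 to 0.23 for ECE1.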
